A study of Mus musculus with 24 samples.

Results

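Bc1 (brain cytoplasmic RNA 1, Entrez gene 100568459) is a noncoding RNA that was counted as 1 of the 24079 genes in the deposited count table. It was found by its symbol, which 1 entry of the table carries, and it held reads in all 24 libraries. The libraries came from 2 striatal regions, the dorsal striatum (DS) and the nucleus accumbens (Acb), of rpS6 knockin mice (rpS6P-/-) and wild-type littermates. In rpS6P-/- mice the serines of ribosomal protein S6 that can be phosphorylated are replaced by alanine in every cell from birth, on a mixed C57Bl/6, Sv129 and ICR background, and gene counts cannot show these substitutions. Lysates of pooled mice gave libraries of 2 kinds, from the whole lysate and from heavy polysomal fractions of a sucrose gradient. The labels give these fractions as more than 4 ribosomes, and the study's methods as 4 or more. Ribosomes on Bc1 itself were not measured. The study used mice of both sexes, and the sexes in each pool are not given. It takes the RNA of whole lysates to reflect cytosolic mRNA levels. With 3 replicate numbers per genotype, region and kind, there were 8 groups of 3 libraries. Libraries of both kinds with the same number are set side by side below as 12 numbered pairs. The labels describe both kinds as taken from a lysate, but do not say that a number marks the same lysate, and the study's methods combine samples in a heavy polysomal replicate.

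Bc1 is transcribed by RNA polymerase III in rodents, mainly in neurons, and is carried into dendrites. Its 5′ domain derives from an alanine tRNA and is related to the ID family of rodent repeats. An A-rich stretch and a unique 3′ domain follow it. It does not code for protein, and it is known to repress the initiation of translation through eIF4A and the poly(A)-binding protein.

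In GRCm38/mm10, GENCODE M21 places Bc1 on the plus strand at chr7:144914470-144914637, as a single exon of 168 bases, and RefSeq (GRCm38.p6) ends it at 144914623, after 154 bases. The GENCODE transcript is shown to let the composition of the RNA be seen, with its longest run of A in capitals (23 bases, positions 77 to 99).
Bc1: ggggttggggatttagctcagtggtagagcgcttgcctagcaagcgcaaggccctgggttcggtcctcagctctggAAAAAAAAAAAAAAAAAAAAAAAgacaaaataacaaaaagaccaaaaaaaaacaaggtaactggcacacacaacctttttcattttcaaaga
A made up 14.5% of the 76 bases before the run, which held 61.8% G and C, and 52.2% of the 69 bases after it. The libraries were made from RNA bound to poly-T beads, and the part of the A-rich stretch in the yield of Bc1 was not tested.

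The first domain is shared with other genes, which bears on how reads can be assigned. Bases 1 to 76 of Bc1 in GENCODE M21, those before its longest run of A, were aligned with the pseudogene Bc1-ps1 (chr7:93660274-93660439, RefSeq GRCm38.p6). The later bases of Bc1 were not compared with it. The aligned bases matched at 72 of 76 positions without a gap, with the differing bases of the pseudogene in capitals here.
Bc1-ps1: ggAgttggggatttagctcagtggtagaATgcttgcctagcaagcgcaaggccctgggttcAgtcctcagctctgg
Of the 119 windows of 50 bases (the read length) in Bc1, 37 also occurred in a transcript of another gene (Akap5, Elp6, Gm26549, Lrrc17 or Tatdn1), and these windows lay within bases 1 to 86. The other 82 windows, which all reach into the A-rich stretch or beyond it, had no exact match in another of the 141767 transcripts searched. Matches with mismatches were not searched, though the authors kept alignments with up to 3. The search covered transcripts only, so copies elsewhere in the genome were not analysed here. The gene nearest to Bc1, LTO1 (Oraov1 in the table), lies 477 bases after it on chromosome 7 and had 103 to 887 reads per library, against at least 206345 for Bc1.

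Assigned reads ranged from 11109431 to 34703044 per library in heavy polysomal fractions and from 9280589 to 20259509 in whole lysates. The summed level of 9 markers of medium spiny neurons, the main neurons of the striatum, was between 3952 and 7236 CPM (reads scaled to the effective library size of edgeR's TMM method) in every library. In tissue RNA, fewer cells of a type and less RNA per cell cannot be told apart.

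Bc1 took the most reads of any gene in the libraries of whole lysates, among reads assigned to genes after poly(A) selection. It took 18.1%, 19.1% and 25.6% of assigned reads in whole lysates of the wild-type Acb and 26.1%, 21.5% and 20.9% in those of the rpS6P-/- Acb. In whole lysates of the DS it took 19.9%, 20.8% and 24.8% in wild-type and 21.9%, 21% and 15.2% in rpS6P-/- mice. Thus about 1 read in 5 came from an RNA of 168 bases, and the lowest and highest of these 12 libraries were both from rpS6P-/- mice.

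In heavy polysomal fractions Bc1 was still abundant but took a much smaller share. The wild-type Acb gave 3.0%, 2.10% and 0.933%, and the rpS6P-/- Acb gave 2.10%, 0.897% and 1.16%. The DS gave 3.85%, 3.11% and 2.40% in wild-type and 3.23%, 1.76% and 3.72% in rpS6P-/- mice. The highest heavy polysomal library (3.85%) lay well below the lowest whole lysate (15.2%), so the kinds of RNA did not overlap. In reads, these shares stood for 206345 to 1041628 in heavy polysomal fractions and for 2080340 to 4212836 in whole lysates. The 95% Wilson interval of a share was at most 0.0226 points wide in heavy polysomal fractions and 0.0561 points in whole lysates. These intervals cover counting error only, and the spread between replicates was far larger.

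**Figure D1:**
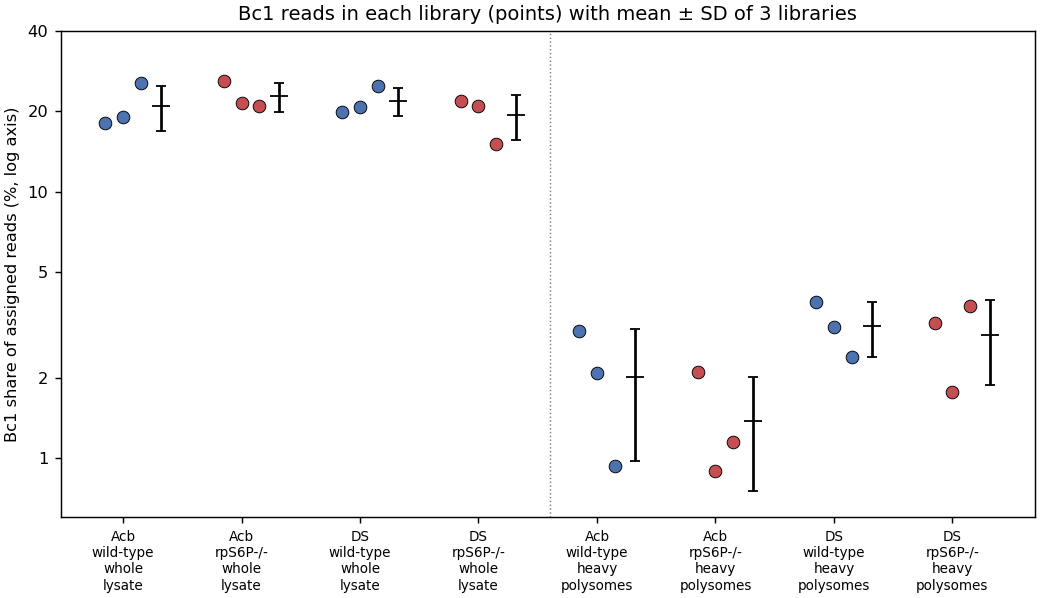
Share of assigned reads on Bc1 (%, log axis) in each of the 24 libraries, by region, genotype and kind of RNA. Points are libraries in the order of their replicate numbers, and bars give the mean ± SD of 3 libraries. The 12 whole lysates lie between 15.2% and 26.1%, and the 12 heavy polysomal libraries between 0.897% and 3.85%.

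Ordered by mean share, the groups ran from whole lysates of the rpS6P-/- Acb (22.8% ± 2.85, SD, n = 3) through the wild-type DS (21.8% ± 2.62) and the wild-type Acb (20.9% ± 4.04) to the rpS6P-/- DS (19.4% ± 3.67). Heavy polysomal fractions followed, with the wild-type DS (3.12% ± 0.721), the rpS6P-/- DS (2.90% ± 1.02), the wild-type Acb (2.01% ± 1.04) and the rpS6P-/- Acb (1.38% ± 0.634). Neighbouring groups in this order overlapped in their libraries, except at the step from whole lysates to heavy polysomal fractions.

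By reads, Bc1 came first in 12 of 12 whole lysates, with 5.79 to 20.5 times the reads of the next gene, Rn45s, the precursor of the ribosomal RNAs. In heavy polysomal fractions it came first in 5 libraries and second, after Rn45s, in 7. The 3 genes with the most reads after Bc1 in whole lysates were Rn45s (mean share 1.80%), Lars2 (0.384%), the mitochondrial leucyl-tRNA synthetase, and Eef1a1 (0.330%), an elongation factor of translation. Scaled to transcript length (TPM), Bc1 came first in all 24 libraries. It made up 76.3% to 86.0% of TPM in whole lysates and 13.1% to 37.9% in heavy polysomal fractions. The full transcript length was used here, and for an RNA this short a correction for read length would change these values.

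The comparison of heavy polysomal fractions with whole lysates sets the shares of reads that an RNA takes in both kinds of library side by side. Each share is relative to its own library, so their ratio does not give the part of all Bc1 molecules found in heavy polysomal fractions. Bc1 was lower in the heavy polysomal library of all 12 numbered pairs. In the wild-type Acb its share there was 16.6%, 11% and 3.65% of its share in the whole lysate of the same number, and in the rpS6P-/- Acb 8.05%, 4.18% and 5.53%. In the DS it was 19.3%, 14.9% and 9.69% in wild-type and 14.7%, 8.41% and 24.5% in rpS6P-/- mice. The whole lysate therefore held 4.08 to 27.4 times the share of the heavy polysomal fraction, with a median of 9.72. Over the 12 pairs the mean log2 difference was -3.32, and an exact permutation test of the signs, two-sided, gave p = 0.000488, the smallest it can give (adjusted p = 0.00342 over 7 permutation tests). With the kinds of RNA exchanged within each region and genotype, and no use of the numbers, the exact permutation test gave p = 1.25e-05, again the smallest it can give (adjusted p = 8.75e-05).

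**Figure D2:**
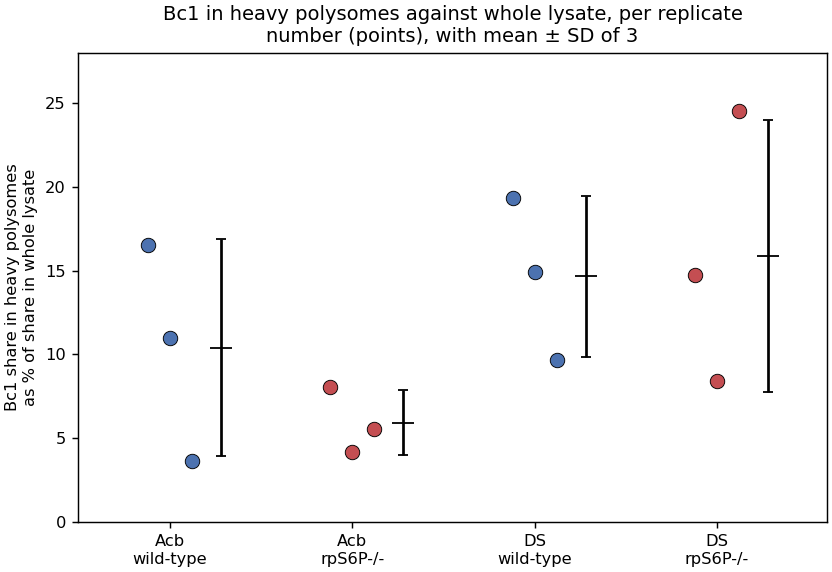
Bc1 share in the heavy polysomal fraction as a percentage of its share in the whole lysate of the same replicate number, for each of the 12 numbered pairs (points), with the mean ± SD of 3 pairs per region and genotype. The rpS6P-/- Acb has the narrowest range (4.18% to 8.05%) and the rpS6P-/- DS the widest (8.41% to 24.5%).

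The same contrast was fitted across all genes with edgeR's quasi-likelihood test, with adjusted p (Benjamini-Hochberg) under 0.05 as the threshold. In the wild-type Acb, Bc1 fell by 3.63 on the log2 scale (SE 0.25, adjusted p = 3.69e-10 in edgeR), where 25.9% of 16043 genes passed the threshold in either direction and 12.9% were lower. In the rpS6P-/- Acb it fell by 4.34 (SE 0.21, adjusted p = 2.64e-13 in edgeR), where 17.2% of genes passed and 9.5% were lower. In the DS it fell by 3.0 in both genotypes, with an SE of 0.14 in each (adjusted p in edgeR 9.96e-16 in wild-type, 5.41e-25 in rpS6P-/- mice), where 24.3% and 28.6% of genes passed and 11.5% and 14.8% were lower. Few genes lay below Bc1. Their number was 71 in the wild-type Acb and 77 in the rpS6P-/- Acb, and 222 and 227 in the DS of wild-type and rpS6P-/- mice, which is 0.443%, 0.490%, 1.42% and 1.43% of the genes tested.

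The heavy polysomal share varied more between libraries than the whole-lysate share. Its highest value was 4.29 times its lowest, against 1.72 times in whole lysates. Across the 12 numbered pairs, the log2 shares of both kinds of library gave Pearson's r = -0.470 (permutation p = 0.125, adjusted p = 0.174 over 4 relations) and Spearman's rho = -0.448 (permutation p = 0.147, adjusted p = 0.167). The r was -0.422 without the 2 pairs farthest from the median, -0.446 within the Acb and -0.505 within the DS. A pair with more Bc1 in the whole lysate was thus not shown to have more of it in heavy polysomal fractions. The total of reads in the library gave r = -0.461 in heavy polysomal fractions (rho = -0.531, permutation p = 0.131 and 0.0787, adjusted p = 0.174 and 0.157) and r = -0.415 in whole lysates (rho = -0.427, permutation p = 0.183 and 0.167, adjusted p = 0.183 and 0.167). In heavy polysomal fractions this r was -0.580 without the 2 farthest libraries, -0.0938 within the Acb and -0.748 within the DS, and in whole lysates it was -0.268, -0.439 and -0.337. The share of other reads on transcripts of 1 kb or less moved with Bc1 in heavy polysomal fractions before adjustment (r = 0.599, rho = 0.615, permutation p = 0.0390 and 0.0369, adjusted p = 0.156 and 0.147). This relation rested on few libraries, since r was 0.264 without the 2 farthest, 0.533 within the Acb and 0.0457 within the DS. Heavy polysomal libraries of the rpS6P-/- Acb had the lowest shares of other reads on such transcripts (3.35%, 3.01% and 2.15%). Those of the rpS6P-/- DS had 4.26%, 4.52% and 5.23%, and wild-type libraries of both regions 3.40% to 4.86%. The part of this in the regional differences of Bc1 given below was not tested.

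The genotype comparison asks whether the loss of rpS6 phosphorylation goes with a different level of Bc1. No genotype comparison of Bc1 passed the threshold. In heavy polysomal fractions of the Acb the shares of rpS6P-/- mice (0.897% to 2.10%) and wild-type mice (0.933% to 3.0%) overlapped. There edgeR gave a log2 difference of -0.53 (SE 0.33, 95% confidence interval -1.22 to 0.17, adjusted p = 0.367), and 0% of 16227 genes passed in edgeR, where 3518 had an unadjusted p under 0.05 and DESeq2 called 1090. The difference was -0.11 without wild-type replicate 1 and -0.99 without rpS6P-/- replicate 1, and it did not pass in either case. In heavy polysomal fractions of the DS it gave -0.15 (SE 0.18, interval -0.51 to 0.20, adjusted p = 0.959 in edgeR), where 0.044% of genes passed. This difference was 0.05 without wild-type replicate 1 and 0.10 without rpS6P-/- replicate 2, so its direction rested on either library.

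In whole lysates the genotype differences of Bc1 ran opposite ways in the regions. In the Acb edgeR gave 0.16 (SE 0.09, interval -0.01 to 0.34, adjusted p = 1.0), where 0.0065% of genes passed. Wild-type replicate 3 (25.6%) lay above its group, and without it the difference was 0.40 with an adjusted p of 1.96e-05 in edgeR, while it was 0.023 without rpS6P-/- replicate 1. In the DS edgeR gave -0.22 (SE 0.08, interval -0.38 to -0.06, unadjusted p = 0.00868, adjusted p = 0.335), where 0.122% of genes passed, and it was -0.027 without rpS6P-/- replicate 3. The test of the difference between the regions gave 0.38 (SE 0.14, unadjusted p = 0.0101, adjusted p = 0.953 in edgeR), where 0.00611% of genes passed. Without wild-type replicate 3 of the Acb it gave 0.62 (adjusted p = 0.0149 in edgeR), and without rpS6P-/- replicate 3 of the DS 0.19. In heavy polysomal fractions the same test gave -0.36 (SE 0.45, adjusted p = 0.795 in edgeR, 0.00592% of genes passed), and 0.06 without wild-type replicate 1 of the Acb.

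In exact permutation tests of the shares, with genotypes exchanged within each region, none of 3 differences passed. The log2 difference between rpS6P-/- and wild-type mice was -0.31 in heavy polysomal fractions (exact permutation p = 0.385, adjusted p = 0.674) and -0.03 in whole lysates (exact permutation p = 0.865, adjusted p = 0.865). For the ratio of the shares within a numbered pair it was -0.29 (exact permutation p = 0.500, adjusted p = 0.677). The smallest p these tests can give is 0.005.

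Whether the drop of Bc1 from whole lysates to heavy polysomal fractions differed between genotypes was tested as an interaction. In the Acb the drop was larger in rpS6P-/- mice by a log2 difference of -0.70 (SE 0.34, interval -1.39 to -0.01, unadjusted p = 0.0460), which did not pass across all genes (adjusted p = 0.410 in edgeR). It ran from -0.17 without wild-type replicate 1 to -1.29 without wild-type replicate 3, and passed in neither case. In the DS the interaction was 0.03 (SE 0.22, interval -0.41 to 0.47, adjusted p = 1.0 in edgeR), and it was -0.40 without rpS6P-/- replicate 3 and -0.28 without wild-type replicate 3. In both regions edgeR called 0 genes (0%), with 1992 and 811 genes at an unadjusted p under 0.05, and DESeq2 called 0 as well.

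Bc1 had lower mean shares in heavy polysomal fractions of the Acb than in those of the DS, and the difference passed the threshold in rpS6P-/- mice. In wild-type mice the shares were 0.933% to 3.0% against 2.40% to 3.85%, and in rpS6P-/- mice 0.897% to 2.10% against 1.76% to 3.72%, so the regions overlapped in both genotypes. In rpS6P-/- mice Bc1 was lower in the Acb by a log2 difference of -1.12 (SE 0.26, interval -1.66 to -0.58, adjusted p = 0.00440 in edgeR), where 18.6% of 16108 genes passed and 10.7% were lower. DESeq2 did not call it (adjusted p = 0.0930). In wild-type mice the difference was -0.74 (SE 0.29, unadjusted p = 0.0221, adjusted p = 0.150 in edgeR), where 8.15% of genes passed, and it was -1.15 without Acb replicate 1 (adjusted p = 0.0110 in edgeR) and -0.38 without Acb replicate 3 (adjusted p = 0.400 in edgeR). With regions exchanged within each genotype, the log2 difference of the shares was -0.93 (exact permutation p = 0.035, adjusted p = 0.117).

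In whole lysates the difference between the regions passed the threshold in neither genotype. The edgeR difference between the Acb and the DS was -0.13 in wild-type mice (SE 0.09, adjusted p = 0.438, 12.7% of genes passed) and 0.24 in rpS6P-/- mice (SE 0.09, unadjusted p = 0.00960, adjusted p = 0.0764 in edgeR, 10.9% of genes passed). Single libraries moved both. In wild-type mice it was -0.36 without Acb replicate 3 (adjusted p = 1.50e-05 in edgeR) and 0.01 without DS replicate 3, and in rpS6P-/- mice it was 0.38 without DS replicate 1 (adjusted p = 0.00533 in edgeR) and 0.055 without DS replicate 3. The permutation test of the shares gave 0.09 (exact permutation p = 0.580, adjusted p = 0.677).

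The drop from whole lysates to heavy polysomal fractions was larger in the Acb than in the DS of rpS6P-/- mice, by -1.33 on the log2 scale (SE 0.26, interval -1.85 to -0.81, adjusted p = 5.39e-04 in edgeR), where 5.87% of 16639 genes passed and 3.94% were lower. DESeq2 did not call this interaction (adjusted p = 0.0848). In wild-type mice it was -0.67 (SE 0.32, unadjusted p = 0.0462, adjusted p = 1.0), where 0% of genes passed in edgeR, 767 had an unadjusted p under 0.05 and DESeq2 called 1. It was -0.083 without Acb replicate 3 and -1.20 without Acb replicate 1, and passed in neither case. The genotypes were not shown to differ in it, since the interaction of region, genotype and kind of RNA was -0.76 (interval -1.79 to 0.26, unadjusted p = 0.142, adjusted p = 0.703 in edgeR). For the ratio of the shares within a numbered pair, the regions differed by -1.02 (exact permutation p = 0.05, adjusted p = 0.117).

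**Figure D3:**
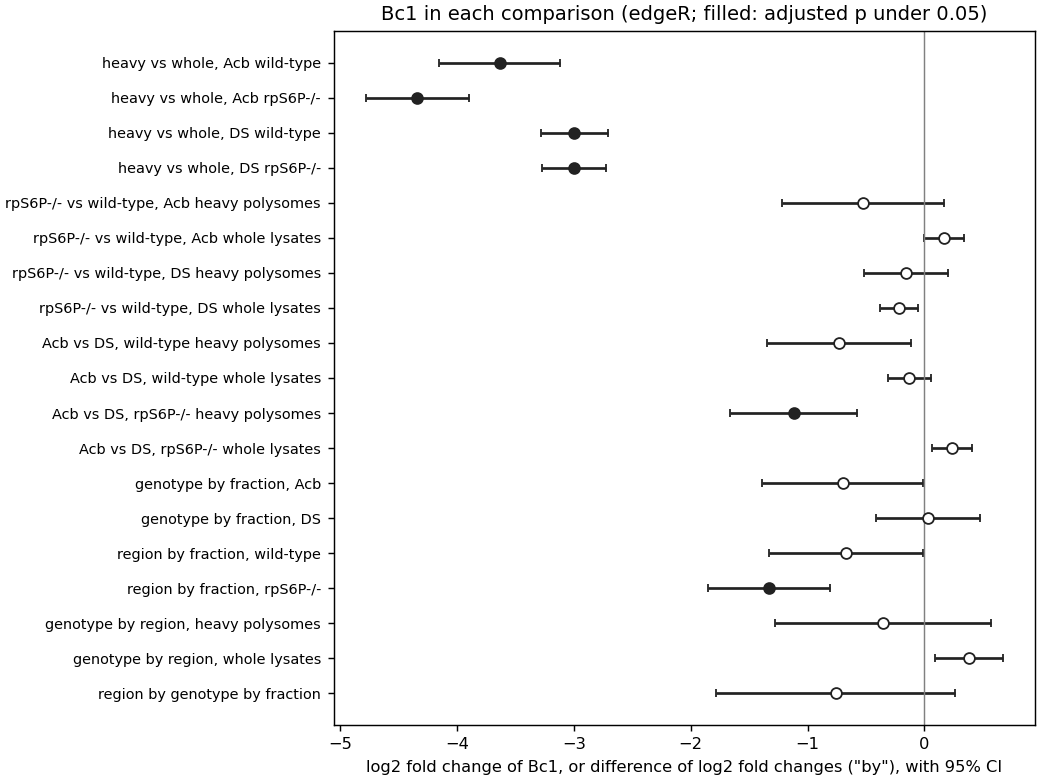
Log2 fold change of Bc1 in each comparison, and difference of log2 fold changes in each interaction, with 95% confidence intervals from edgeR (x axis, log2 scale). Filled points have an adjusted p under 0.05. The 4 drops from whole lysates to heavy polysomal fractions lie between -4.34 and -3.0, and all genotype comparisons have open points.

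Markers of some other cells differed between the regions. The ranges given here take both kinds of RNA together, and only those of cortical excitatory neurons and the choroid plexus lay apart. The summed level of 4 markers of cortical excitatory neurons was 692 to 925 CPM in the DS and 61.2 to 198 CPM in the Acb, with Slc17a7, the vesicular glutamate transporter, the most abundant. Astrocyte markers (4 of 4 measured) summed to 445 to 778 CPM in the Acb and 216 to 454 CPM in the DS, and oligodendrocyte markers to 2391 to 4921 CPM and 2082 to 4055 CPM. Choroid plexus markers summed to 28.8 to 74.4 CPM in the Acb and 11.1 to 19.9 CPM in the DS, microglia markers to 106 to 158 CPM and 73.2 to 141 CPM, and endothelial markers to at most 14.3 CPM in either. Their part in the regional difference of Bc1 was not tested.

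Bc1 acts through proteins that bind or carry it. All 16 members of that list were tested, among them eIF4A, poly(A)-binding protein, FMRP and its relatives, and the signal recognition particle proteins Srp9 and Srp14. Members of this and the later lists were counted as lower or higher only where they passed the threshold. Between heavy polysomal fractions and whole lysates 7 were lower and 1 higher in the wild-type Acb, 5 and 2 in the rpS6P-/- Acb, 4 and 1 in the wild-type DS, and 8 and 3 in the rpS6P-/- DS. Of all genes tested 12.9%, 9.5%, 11.5% and 14.8% were lower and 13%, 7.7%, 12.8% and 13.8% higher in these comparisons, which serves for the other lists too. The medians were -0.31, -0.14, -0.24 and -0.43, against 0.03, 0.01, 0.00 and 0.03 over all genes. Pabpc1, the cytoplasmic poly(A)-binding protein, was lower in all 4 comparisons, by -1.40, -1.38, -1.08 and -1.12, which is less than for Bc1. The members with the most reads were Eif4a2, a helicase of translation initiation (0.30, 0.46, 0.26 and 0.32, past the threshold in 2 of 4), and Purb, a DNA- and RNA-binding protein (0.02, -0.35, 0.03 and -0.26, in none). In the 4 genotype comparisons 0 of the 16 passed in edgeR, where 0% to 0.122% of all genes passed.

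RNA polymerase III and its factors were measured with 25 of 25 members, and their medians lay at 0.15 in the wild-type Acb, 0.12 in the rpS6P-/- Acb, 0.09 in the wild-type DS and 0.22 in the rpS6P-/- DS for heavy polysomal fractions against whole lysates. The number lower was 4, 4, 3 and 6 and the number higher 1, 0, 5 and 6, and Maf1, the repressor of this polymerase, and Polr1d, a subunit shared with RNA polymerase I, had the most reads. None of the 25 passed in a genotype comparison, where at most 0.122% of all genes passed. Of 9 other short RNAs made by this polymerase the table held 3, Rpph1 (the RNA of RNase P), Rmrp (the RNA of RNase MRP) and Vaultrc5 (a vault RNA). These had at most 250, 127 and 68 reads in any library. Past the threshold, 0 of 2 tested were lower in heavy polysomal fractions in the wild-type Acb and 3 of 3 in the rpS6P-/- Acb. In the DS 2 of 2 were lower in wild-type and 2 of 3 in rpS6P-/- mice. By sign alone all of those tested were lower, with medians of -1.71, -4.72, -4.04 and -6.57 in the same order. In all but the wild-type Acb these medians lay below the log2 value of Bc1, though they rest on few reads. Rpph1 had 113, 14 and 38 reads in whole lysates of the wild-type Acb against 66, 47 and 0 in heavy polysomal fractions, and 59, 27 and 250 against 21, 15 and 5 in the rpS6P-/- Acb. Vaultrc5 had 3, 0 and 1 against 0, 0 and 9 in the wild-type Acb, and 0, 17 and 68 against 0 in each in the rpS6P-/- Acb.

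Other long noncoding RNAs of the brain were mostly lower in heavy polysomal fractions too. Of 13 tested, 10 were lower in the wild-type Acb, 10 in the rpS6P-/- Acb and 9 in the DS of either genotype, while 2, 0, 0 and 1 were higher. Their medians were -1.07, -1.43, -1.05 and -0.96. Meg3, an imprinted RNA, was lower by -0.61, -1.30, -0.75 and -0.53, and Malat1, a nuclear RNA, by -2.26, -1.75, -1.81 and -1.38. The lowest value of any of the 13 was -3.25, for Snhg8 in the rpS6P-/- Acb, so none fell as far as Bc1 in the same comparison.

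Of 10 factors and repressors of translation initiation 5, 2, 5 and 5 were higher and 2, 2, 3 and 2 lower in heavy polysomal fractions, with medians of 0.50, -0.02, 0.49 and 0.47 in the same order of groups. Eif4g2 and Eif4h, which act in initiation, had the most reads. The 8 mRNAs known from dendrites gave medians of -0.57, -0.52, -0.54 and -0.50, with 6, 4, 4 and 4 lower and 1, 0, 1 and 2 higher. Nrgn, which encodes the postsynaptic protein neurogranin, was the only member of any of these lists to pass in a genotype comparison. In whole lysates of the DS it averaged 1589 ± 36.5 CPM (SD, n = 3) in rpS6P-/- and 2186 ± 205 CPM in wild-type mice, a log2 difference of -0.48 (SE 0.08, adjusted p = 9.08e-04 in edgeR). In that comparison 0.122% of 15601 genes passed.

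The genes most like Bc1 over the 24 libraries, by Pearson's r of log2 CPM, were Pabpc1 (r = 0.978), Nrsn1 (0.976), a neuronal membrane protein, Fth1 (0.971), the ferritin heavy chain, Sepw1 (0.969), a selenoprotein, and Rpl41 (0.968), a ribosomal protein. Of 11978 genes compared 138 had r above 0.9, and the median r was -0.0894. The points share the split between kinds of RNA, in which these 5 genes were also lower in heavy polysomal fractions, by log2 differences of -1.22, -1.70, -1.09, -2.13 and -1.99. With each library taken as its deviation from the mean of its group, the most alike were 1500011B03Rik (r = 0.804), Enho (0.796), Fth1 (0.780), Stx4a (0.775) and Lamtor1 (0.746), and none reached 0.9. Fth1 was in both lists. These values are given as descriptions without a test.

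Because Bc1 takes a large and unequal share of reads, it sets the scale of every other gene when reads are divided by the library total. Its presence in the total divided the CPM of all other genes by 1.18 to 1.35 in whole lysates, a log2 shift of -0.44 to -0.24, and by 1.01 to 1.04 in heavy polysomal fractions. Without Bc1, whole lysates held 6907494 to 16231915 reads for all other genes. The TMM factors of edgeR, which scale libraries on the genes that differ least, had a median of 0.915 in whole lysates and 1.09 in heavy polysomal fractions. Computed without Bc1, these medians were 1.02 and 0.987.

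**Figure D4:**
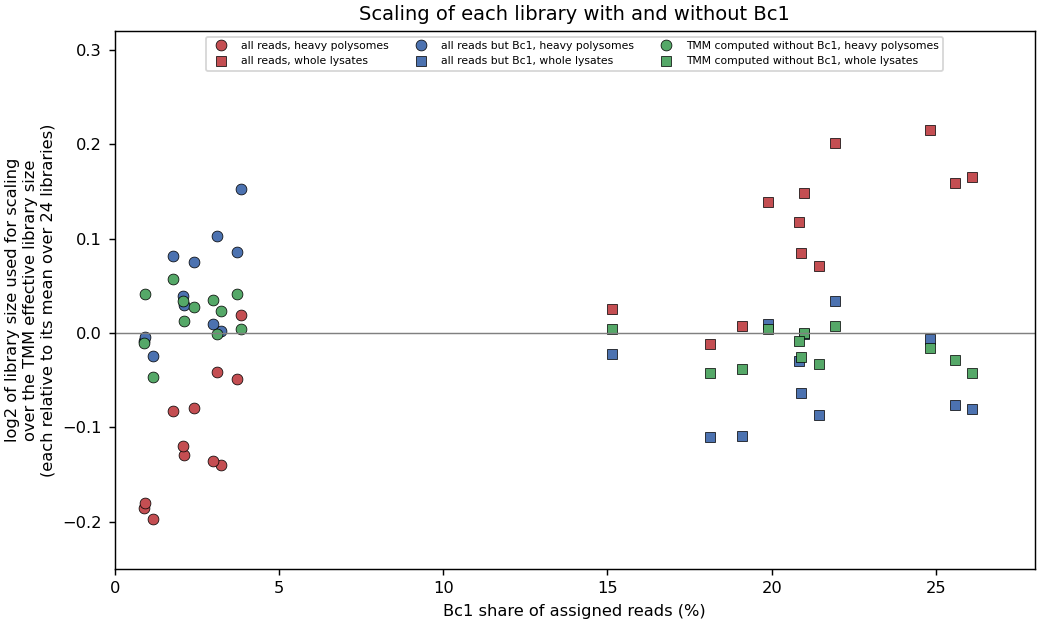
Library size used for scaling relative to the TMM effective library size (y axis, log2, each relative to its mean over 24 libraries) against the share of reads on Bc1 (x axis, %), for 3 ways of scaling. Sizes from all reads run from -0.20 in heavy polysomal fractions to 0.21 in whole lysates, while TMM with and without Bc1 differs by at most 0.0573.

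The effect on the comparison of heavy polysomal fractions with whole lysates was large under plain library totals and small under TMM. Scaled by all reads, the median log2 fold change of all genes moved from 0.03 to 0.27 in the wild-type Acb, from 0.01 to 0.31 in the rpS6P-/- Acb, from 0.00 to 0.19 in the wild-type DS and from 0.03 to 0.28 in the rpS6P-/- DS. The share of called genes that were higher in heavy polysomal fractions moved from 50.3% to 75.7%, from 44.7% to 80.4%, from 52.5% to 72.8% and from 48.2% to 72.8% in that order. In the wild-type Acb, all 2092 genes called higher with TMM were called higher with all reads as well, which added 1554 others, while 896 of the 2066 genes called lower were lost. In the rpS6P-/- Acb, all reads added 2177 higher calls and lost 669 lower ones. No gene was called in opposite directions, and the sign of the fold change turned for 9.95% to 16.8% of genes.

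Leaving Bc1 out of the totals moved the medians and the calls back past those of TMM, to the lower side. The medians were then -0.03 and -0.04 in the wild-type and rpS6P-/- Acb and -0.12 and 0.01 in the DS, and the share of higher calls was 43.4%, 36.3%, 39.1% and 46.6%. TMM without Bc1 gave medians between -0.02 and 0.03 and shares of higher calls of 48.6%, 45.8%, 50.0% and 48.4%, near those of TMM with Bc1. Bc1 itself was lower under each scaling, between -2.74 and -4.40 on the log2 scale.

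**Figure D5:**
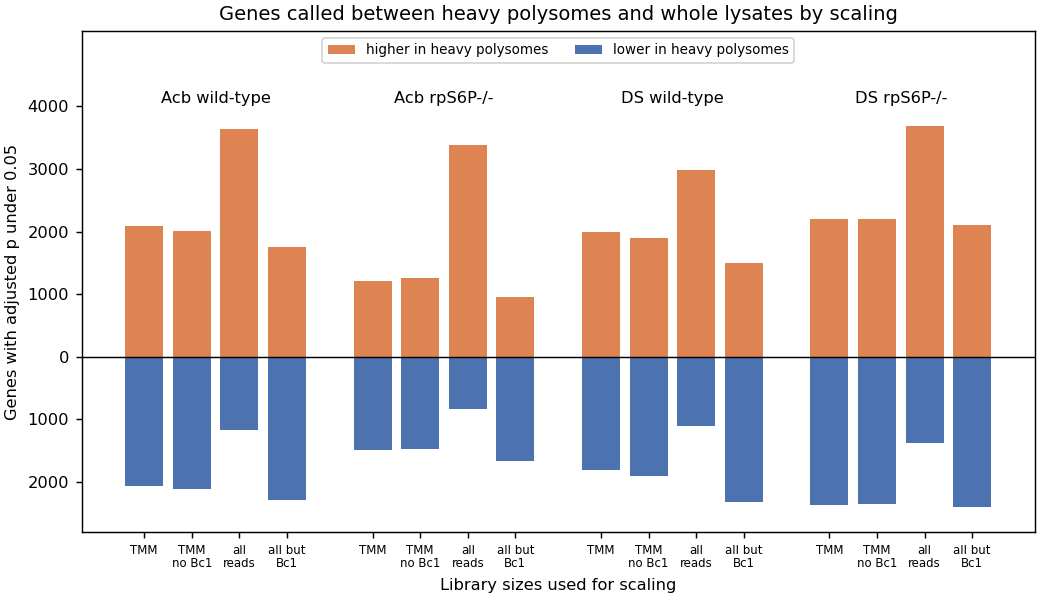
Genes with an adjusted p under 0.05 in edgeR between heavy polysomal fractions and whole lysates (y axis, number of genes, lower calls drawn downward), by region and genotype, under 4 scalings (x axis). With all reads the higher calls are the tallest bars in each group (3646, 3387, 2976 and 3688), against 2092, 1210, 1994 and 2195 with TMM.

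The genotype comparisons moved less. With all reads the median of all genes was -0.02 in the Acb heavy polysomal fractions, -0.05 in its whole lysates, and 0.07 and 0.05 for the same kinds of RNA in the DS, against -0.01, 0.00, 0.03 and 0.00 with TMM. The number of genes called was then 1, 1, 7 and 10, against 0, 1, 7 and 19. For Bc1 itself all reads gave -0.54, 0.12, -0.10 and -0.17, and none of these passed the threshold.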

How the data were processed

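Libraries (TruSeq stranded kit, poly(A) selection, 50-base single reads) were aligned by the authors to mm10 with TopHat2 2.0.13 and Bowtie2 2.2.3, per the labels and the methods. The study's methods report contamination by E. coli sequences, for which several sequencing runs were made to reach a minimum of mouse reads per sample. Its part in the read totals was not tested. Alignments with more than 3 mismatches were discarded, and the authors counted reads per gene with HTSeq 0.6.1p1 and deposited raw counts without normalization. How reads with several alignments were treated is not given in the sources used here. Each library was taken as a separate pooled sample of its group, as labelled, so p-values measure the spread between such pools. The study's text gives differing numbers of mice per pool.

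Each comparison kept the genes that held at least 15 reads in its libraries together, the minimum the study used. Fits used edgeR 4.0.16 (TMM, glmQLFit, glmQLFTest, legacy settings) in R 4.3.3, with DESeq2 1.42.0 as an alternative. SEs and 95% intervals were derived from the F statistic. Shares were compared by exact permutation tests and correlations by 100000 resamples, in Python 3.11.15 with scipy 1.17.1. Log2 CPM used a prior count of 2. Scripts were tested on simulated data.

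Libraries of both kinds with one number were treated as a pair in the ratios and in the exact test of signs, and the number as a block was an alternative of the fits. The labels do not say that a number marks one lysate. Genes named were Bc1, the list members past the threshold in a genotype comparison or else the 2 with the most reads, the 5 most alike by r among genes with at least 50 reads on average, and the 3 with the most reads after Bc1. Pabpc1 was further described in its list and Snhg8, Rpph1, Rmrp and Vaultrc5 were named after their values were seen. Bc1 and all lists were chosen with earlier results of these data known. Alternatives were other scalings, filters, DESeq2, the replicate block, all 24 libraries in one fit and leaving out each replicate. Leaving Rn45s out of the totals, the exact test without pairs and the interaction of region, genotype and kind of RNA were chosen after seeing the data.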

Additional observations from a re-analysis of the deposited data

Results flagged for a closer look

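The drop of Bc1 from whole lysates to heavy polysomal fractions differed between the regions in rpS6P-/- mice, by a log2 difference of -1.33 between the Acb and the DS in edgeR's test of the interaction (adjusted p = 5.39e-04). It is listed because that test found the effects in the regions to differ. Pairs of libraries with the same number may not share a lysate. Within them the heavy polysomal share was 4.18% to 8.05% of the whole-lysate share in the Acb and 8.41% to 24.5% in the DS. In wild-type mice it was 3.65% to 16.6% and 9.69% to 19.3%. These ranges depend on the pairing by number, which deviations from group means did not show. In rpS6P-/- mice the heavy polysomal shares overlapped between the Acb and the DS (0.897% to 2.10% and 1.76% to 3.72%). The whole-lysate shares overlapped as well (20.9% to 26.1% and 15.2% to 21.9%). The interaction test of edgeR was passed by 5.87% of all genes in rpS6P-/- mice. Leaving out each replicate gave -1.66 to -0.94, past the threshold each time in edgeR, and DESeq2 did not call it (adjusted p = 0.0848). The interaction with genotype did not pass the threshold (adjusted p = 0.703 in edgeR).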

How the results depend on the processing

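The drop of Bc1 from whole lysates to heavy polysomal fractions stayed past the threshold in all 36 other settings and all 24 fits without a replicate, with log2 values of -4.43 to -2.74 and -4.79 to -2.74. The exact test of the shares passed with and without pairs. Its mean log2 difference of -3.32 is the same both ways by construction. Both calls of Bc1 between regions in rpS6P-/- mice, in heavy polysomal fractions and region by fraction, held in edgeR without each replicate (-1.59 to -0.88 and -1.66 to -0.94).

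Deviations from group means did not show that replicate numbers pair libraries. Their correlations ran from -0.0376 to 0.0743 between kinds of RNA (0 of 12 pairs above 0.1), from -0.29 to 0.32 between genotypes (2 of 12) and from -0.26 to 0.22 between regions (1 of 12). With the replicate block, edgeR called Bc1 between genotypes in whole lysates of the Acb (0.18) and the DS (-0.23), between regions in wild-type heavy polysomal fractions (-0.87) and whole lysates (-0.15) and rpS6P-/- whole lysates (0.25), in genotype by fraction in the Acb (-0.67), region by fraction in wild-type mice (-0.76) and genotype by region in whole lysates (0.42). These fits pooled the spread over genes almost entirely, except in wild-type heavy polysomal fractions. The block changed no other call of Bc1, and it moved the genes called between genotypes to 98 and 5 (heavy polysomal fractions and whole lysates of the Acb) and 31 and 71 (the DS).

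Without a filter beyond 1 read, edgeR called Bc1 between genotypes in whole lysates of the DS (-0.21) and between regions in wild-type heavy polysomal fractions (-0.73) and rpS6P-/- whole lysates (0.24). The last was also called with library size alone (0.24) and with library size without Bc1 (0.30). DESeq2 did not call Bc1 between regions in rpS6P-/- heavy polysomal fractions (-1.13) or region by fraction in rpS6P-/- mice (-1.37). The cause was not tested for any of these.

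Leaving out each replicate gave, between genotypes, 0.023 to 0.40 in whole lysates of the Acb and -0.40 to 0.10 in heavy polysomal fractions of the DS. The change of sign in the latter came without wild-type replicate 1 (0.05) or rpS6P-/- replicate 2 (0.10). Between regions it gave -1.15 to -0.38 in wild-type heavy polysomal fractions, -0.36 to 0.0086 in wild-type whole lysates and 0.055 to 0.38 in rpS6P-/- whole lysates. Genotype by fraction in the Acb ran from -1.29 to -0.17 and region by fraction in wild-type mice from -1.20 to -0.083. Genotype by fraction in the DS ran from -0.40 to 0.36 (-0.28 without wild-type replicate 3), genotype by region from -0.85 to 0.056 in heavy polysomal fractions and from 0.19 to 0.62 in whole lysates, and the permuted genotype difference of whole-lysate shares from -0.077 to 0.057. The last changed sign without replicate 3 of any of the 4 groups, the values being 0.057, 0.05, 0.02 and 0.0035.

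The number of genes called between heavy polysomal fractions and whole lysates of the rpS6P-/- Acb was 4215 with library size alone and 1720 (heavy polysomal replicate 2) to 2584 without a replicate, against 2704. Between genotypes it was 0 to 3 without a replicate in heavy polysomal fractions of the Acb, 0 to 3 in whole lysates of the Acb, 0 (rpS6P-/- replicate 2) to 29 (wild-type replicate 3) in DS heavy polysomal fractions, where each library moved the number, and 1 (rpS6P-/- replicate 2) to 56 (wild-type replicate 1) in whole lysates of the DS, where each but wild-type replicate 3 did. With no filter these numbers were 549, 2, 37 and 66 in the same order. DESeq2 gave 1090 (Acb heavy polysomal fractions), 17 (DS heavy polysomal fractions) and 95 (DS whole lysates). The edgeR function filterByExpr gave 0 (Acb whole lysates), 1 (DS heavy polysomal fractions) and 2 (DS whole lysates). Library size alone gave 1 (Acb heavy polysomal fractions) and 10 (DS whole lysates), and library size without Bc1 gave 1 (Acb heavy polysomal fractions) and 14 (DS heavy polysomal fractions).

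The median of all genes was 0.27, 0.31, 0.19 and 0.28 with library size alone in the wild-type Acb, the rpS6P-/- Acb, the wild-type DS and the rpS6P-/- DS. It was -0.032, -0.044 and -0.12 with library size without Bc1 in the first 3, and 0.055 without a filter in the rpS6P-/- Acb. Counting error did not limit the shares of Bc1, and 3 libraries per group limit what can be told between groups.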

Other observations

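Rn45s, the other RNA that took a large share of reads, ran from 1.05% to 3.61% in whole lysates and from 1.09% to 5.39% in heavy polysomal fractions. The lowest and the highest heavy polysomal values both came from the Acb, from wild-type replicate 3 and from rpS6P-/- replicate 1. Taking its reads out of the totals gave a log2 difference of Bc1 shares between heavy polysomal fractions and whole lysates of -3.31, against -3.32 with them, and left the side of the threshold of the 7 permutation tests as it was.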
